A study of Mus musculus with 26 samples.

Results

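RNA recovered with an hnRNPK antibody from nuclear extracts of mouse liver was compared between ob/ob and wild-type mice. The members are the 4 libraries of nuclear hnRNPK immunoprecipitation (IP) from these groups, 2 of ob/ob and 2 of wild type, chosen by their labels from 26 libraries in the series. The ob/ob group is strain B6.V-Lepob/J on normal diet, and the wild-type group is strain C57BL/6J on normal diet. The matching total liver RNA has 8 libraries, and the cytoplasmic hnRNPK IP of the same groups has 4. The 2 nuclear IP libraries of C57BL/6J mice on high-fat diet were not contrasted. They entered the fit for the choice of clusters tested, the scaling, the mean abundance and the spread. Control IgG beads gave 1 library per compartment, from mixed strains and diets. Each extract had passed over IgG beads before it met the hnRNPK antibody, and total RNA is not the input of the extract. The labels give no age or sex and do not say whether same-numbered libraries share an animal, so a p-value here rests only on how far these libraries spread, which may be technical.

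hnRNPK is a heterogeneous nuclear ribonucleoprotein whose KH domains bind cytosine-rich single-stranded RNA. It shuttles between nucleus and cytoplasm and is known for roles in splicing, RNA stability and translation. ob/ob mice carry a mutation of the leptin gene, overeat, become obese and develop a fatty, insulin-resistant liver. A nuclear IP catches RNA that is in the salt extract of the nuclei and held on the beads, so its composition can follow both the RNA present in the nucleus and its binding.

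The deposited tables give estimated read counts per transcript, and these were summed per numbered cluster of transcripts (31469 clusters). The files pair no transcript with a gene name, so clusters carry the identifier of their most counted transcript in the nuclear IP, and gene groups and cell type markers were not analysed here. The ob/ob nuclear IP libraries held 5517528 and 7216376 counts, and the wild-type ones 10581089 and 8834174. Total RNA libraries of the 2 groups held 25597307 to 41157450. Nuclear IgG held 3116786 and cytoplasmic IgG only 338469, so CPM of the latter rest on few counts. Between the 2 libraries of a group, Pearson's r of log2 CPM (counts scaled to a common library size and composition) across the 11531 clusters tested was 0.958 in ob/ob and 0.960 in wild type, as a description of likeness. Cluster uc012ath.2, the most counted in all nuclear IP libraries, took 21.8% and 22.4% of the counts in ob/ob and 18.6% and 21.6% in wild type. In high-fat diet it took 29.5% and 41.2%. It also took 16.5% of the nuclear and 17.4% of the cytoplasmic IgG library. In total RNA it took 2.78% and 2.42% in ob/ob and 0.998% and 1.51% in wild type.

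Nuclear IP of ob/ob liver differed from that of wild-type liver in 735 of 11531 clusters (6.37%) at an adjusted p under 0.05 (edgeR quasi-likelihood test with Benjamini-Hochberg adjustment), below referred to as called. Of these, 377 were higher in ob/ob (3.27% of those tested) and 358 were lower (3.10%). The split was 353 higher and 233 lower by library size only, 413 and 593 with all 12 IP libraries in the fit, and 743 and 1112 with all 18 units. The median log2 fold change, ob/ob over wild type, was 1.45 among the higher clusters and -1.06 among the lower ones, while it was 0.00 over all clusters tested (0.0049 before rounding). Before adjustment, 2858 clusters (24.8%) had p under 0.05. At least a 2-fold estimate was found for 291 higher (2.52%) and 204 lower clusters (1.77%). An absolute log2 fold change of at least 2 was found for 109 higher and 49 lower clusters, and one of at least 4 for 20 higher and 23 lower clusters. In every called cluster the 2 ob/ob libraries lay on one side of the 2 wild-type libraries. Over all clusters tested, both ob/ob libraries lay above both wild-type libraries in 24.9% and below them in 29.7%. In bulk tissue, fewer cells of a type and less RNA per cell cannot be told apart.

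**Figure D1:**
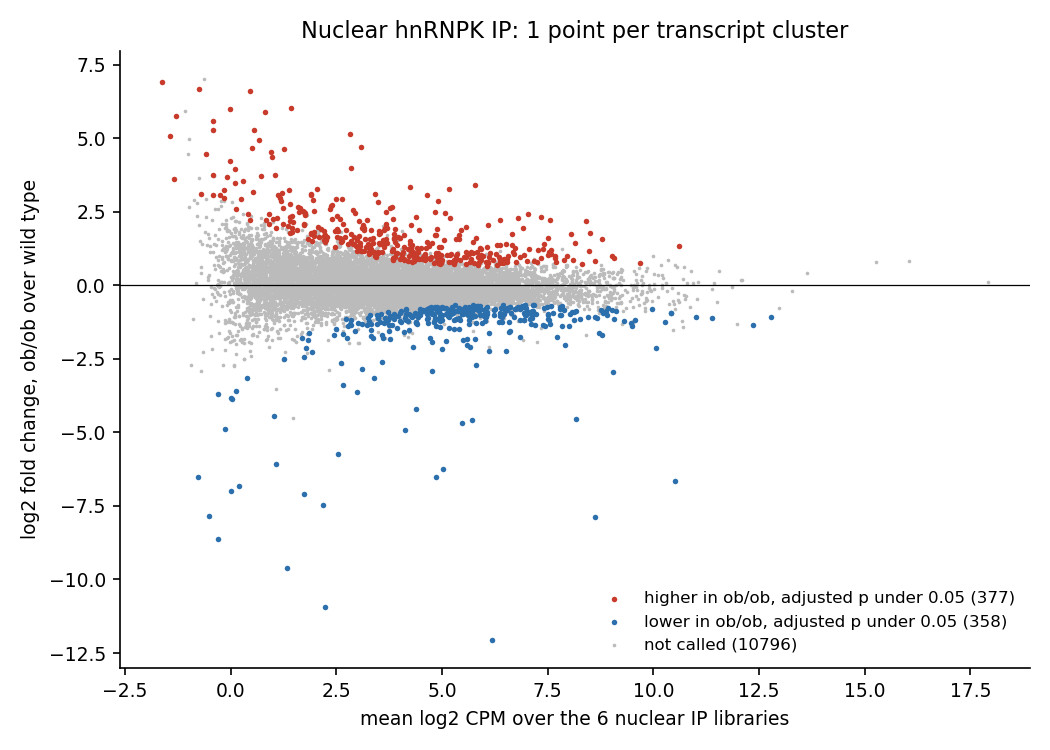
Each point is a transcript cluster in nuclear hnRNPK IP. The x axis is the mean log2 CPM over the 6 nuclear IP libraries and the y axis the log2 fold change of ob/ob over wild type. The 377 clusters called higher are red, the 358 called lower blue and the 10796 not called grey. Red points are spread over all abundances and blue points lie mostly at moderate and high abundance.

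The number of calls depended on which libraries were in the fit, those of high-fat diet included, and removing a library did not always lower it. Without ob/ob replicate 2, 62 clusters were called, and without ob/ob replicate 1, 392. Without high-fat diet replicate 1 or 2 the count was 321 or 308, and with only the 4 libraries compared it was 279. Of the main calls, 60 were called again without ob/ob replicate 2 and 321 without ob/ob replicate 1.

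Among clusters that were higher and had a mean log2 CPM of at least 1, uc008xyp.2 (1260 nt, 1 isoform) had the largest fold. It had 46.5 and 46.7 CPM in ob/ob nuclear IP, against 0.810 and 0.593 CPM in wild-type nuclear IP. Both ob/ob libraries stood far above both wild-type libraries and above the high-fat diet libraries, which had 0.824 and 0.304 CPM. The log2 fold change was 6.03 ± 0.33 (SE, adjusted p = 1.3e-05, edgeR). The summed counts were 621 in ob/ob and 14 in wild type, a ratio of 67.6 by library size with an exact 95% binomial interval of 40.0 to 124, which covers counting error only. Total RNA went the same way, with 26.4 and 43.4 CPM in ob/ob against 0.623 and 0.239 CPM in wild type and a log2 fold change of 6.40 ± 0.49 (adjusted p = 0.010, edgeR). Within ob/ob both nuclear IP libraries lay above both total RNA units. Nuclear IgG, from mixed mice, had 6.79 CPM.

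Cluster uc007hov.1 (899 nt, 2 isoforms) was next. It had 21.8 and 76.8 CPM in ob/ob nuclear IP, against 1.62 and 1.19 CPM in wild-type nuclear IP. The groups did not overlap, but the ob/ob libraries differed widely from each other. The log2 fold change was 5.15 ± 0.59 (SE, adjusted p = 0.0019, edgeR), and it was 3.96 without ob/ob replicate 2 and 5.79 without ob/ob replicate 1. High-fat diet had intermediate values of 6.27 and 8.52 CPM. Total RNA had 166.9 and 192.9 CPM in ob/ob against 34.7 and 6.65 CPM in wild type, the same direction, with a log2 fold change of 3.18 ± 0.73 that did not pass (adjusted p = 0.072, edgeR). In both mouse groups the level was lower in nuclear IP than in total RNA. Nuclear IgG had 15.9 CPM, below both ob/ob libraries and above both wild-type libraries.

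Among lower clusters, uc008tak.2 (881 nt, 6 isoforms) had the largest fold. It had 0 and 0.649 CPM in ob/ob nuclear IP, against 1222 and 2163 CPM in wild-type nuclear IP. With 5 counts in ob/ob and 31816 in wild type, it was 4170-fold lower in ob/ob by library size (exact 95% binomial interval 1790 to 12900). The fitted log2 fold change was -12.05 ± 0.87 (SE, adjusted p = 0.00010, edgeR). It was -11.27 without ob/ob replicate 1, and -16.49 without ob/ob replicate 2, where the remaining ob/ob library had 0 counts and the fitted value is no bound. High-fat diet libraries had 1586 and 518.9 CPM and stood with wild type. In total RNA it had 0.303 and 0.381 CPM in ob/ob against 31.6 and 46.9 CPM in wild type, with a log2 fold change of -6.74 ± 0.44 (adjusted p = 0.0072, edgeR). In wild type it was far more abundant in nuclear IP than in total RNA. Nuclear IgG had 1025 CPM, below both wild-type IP libraries and closer to the first of them.

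Cluster uc012dfe.1 (796 nt, 3 isoforms) had 0 counts in both ob/ob nuclear IP libraries, against 44.0 and 27.2 CPM in the wild-type ones. With a floor of 3 counts summed over ob/ob it was at least 157-fold lower (adjusted p = 0.00014, edgeR). Nuclear IP of high-fat diet had 22.8 and 32.2 CPM. Total RNA had 0.145 and 0.159 CPM in ob/ob against 19.5 and 70.9 CPM in wild type, again lower (log2 fold change -8.10 ± 0.89, SE, adjusted p = 0.026, edgeR). It was at 0 in the ob/ob cytoplasmic IP as well. Both lower clusters carry neighbouring cluster numbers, 18951 and 18953, and estimates of 0 depend on how the authors' software divided reads among similar transcripts.

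**Figure D2:**
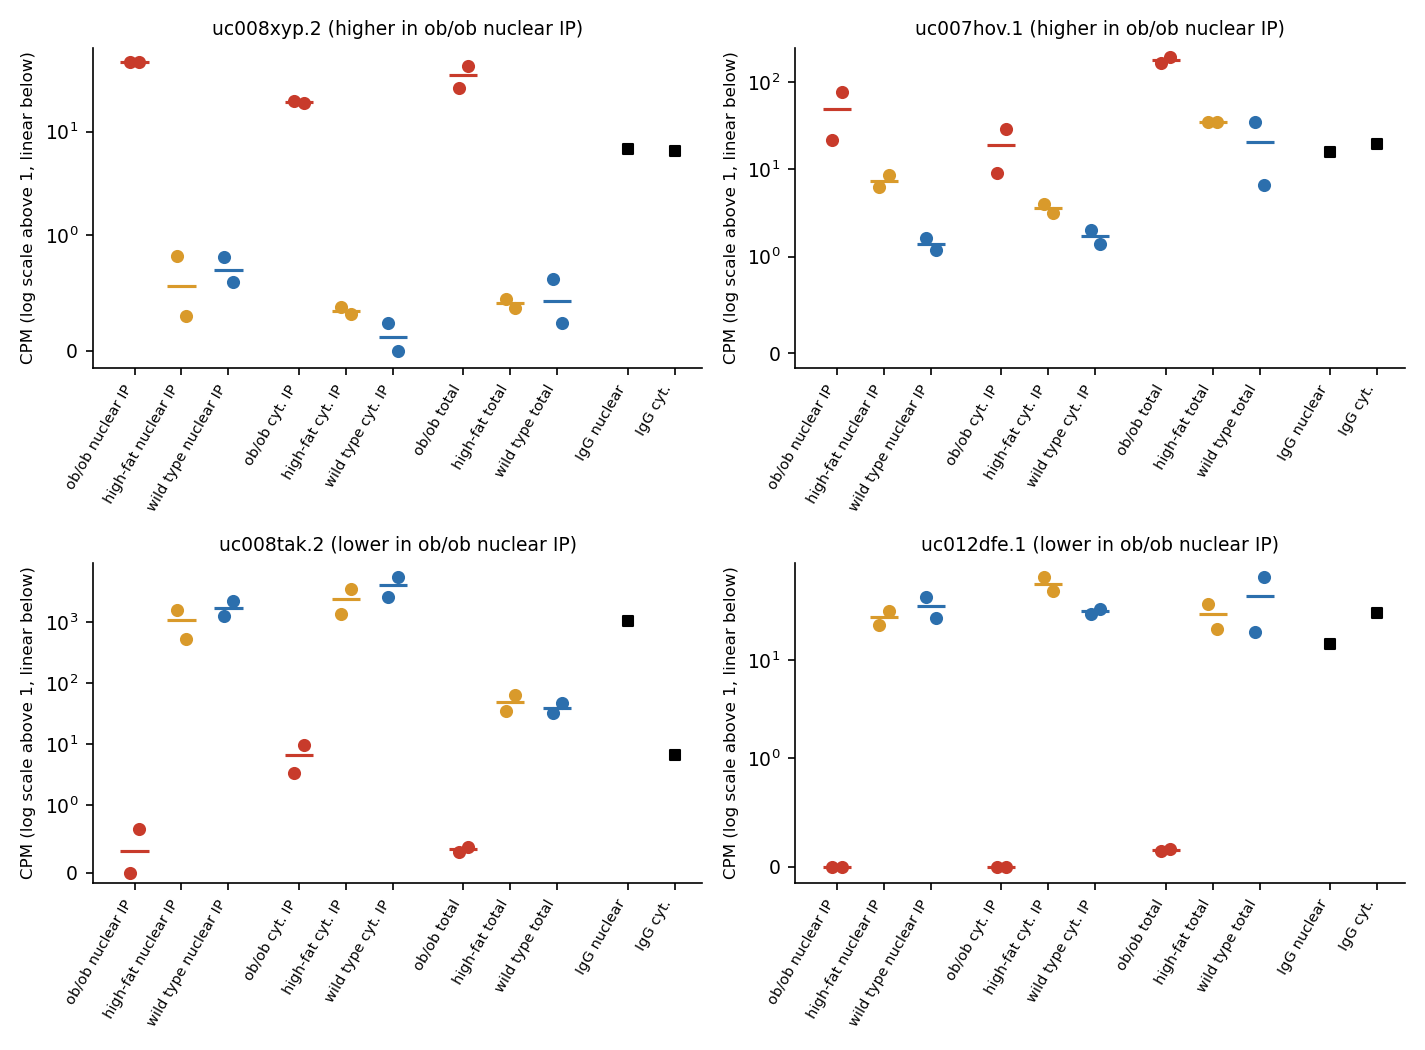
CPM of the 4 named clusters in each unit of nuclear IP, cytoplasmic (cyt.) IP and total RNA of ob/ob, high-fat diet and wild-type mice. Dots are units and lines are means of 2. Black squares are the single IgG libraries, and the y axis is logarithmic above 1 CPM and linear below. For uc008xyp.2, ob/ob nuclear IP stands near 46.6 CPM while high-fat diet and wild type stay under 1. For uc008tak.2 and uc012dfe.1, ob/ob lies at or near 0 in nuclear IP and in total RNA.

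The called clusters made up a modest part of each library. The 377 higher clusters took 2.92% and 3.65% of all counts in ob/ob nuclear IP, against 1.44% and 1.27% in wild-type nuclear IP. The 358 lower clusters took 4.08% and 3.65% in ob/ob and 9.84% and 9.40% in wild type. These 4 values per set restate the selection and are given as description. In nuclear IP of high-fat diet, which the contrast did not use, the higher clusters took 1.82% and 1.29% and the lower ones 6.98% and 4.51%. Cluster uc012ath.2 alone took 29.5% and 41.2% of these libraries, against 18.6% and 21.6% in wild type. That leaves a smaller share for all other clusters in high-fat diet. In total RNA the higher clusters took 12.3% and 11.8% in ob/ob and 9.46% and 6.80% in wild type. The lower clusters took 3.28% and 3.55% of total RNA in ob/ob and 7.43% and 8.09% in wild type. Higher clusters therefore held a smaller share of nuclear IP than of total RNA in both mouse groups. Among the lower clusters counts were concentrated, since the 10 most counted ones held 47.3% of that set's wild-type counts.

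**Figure D3:**
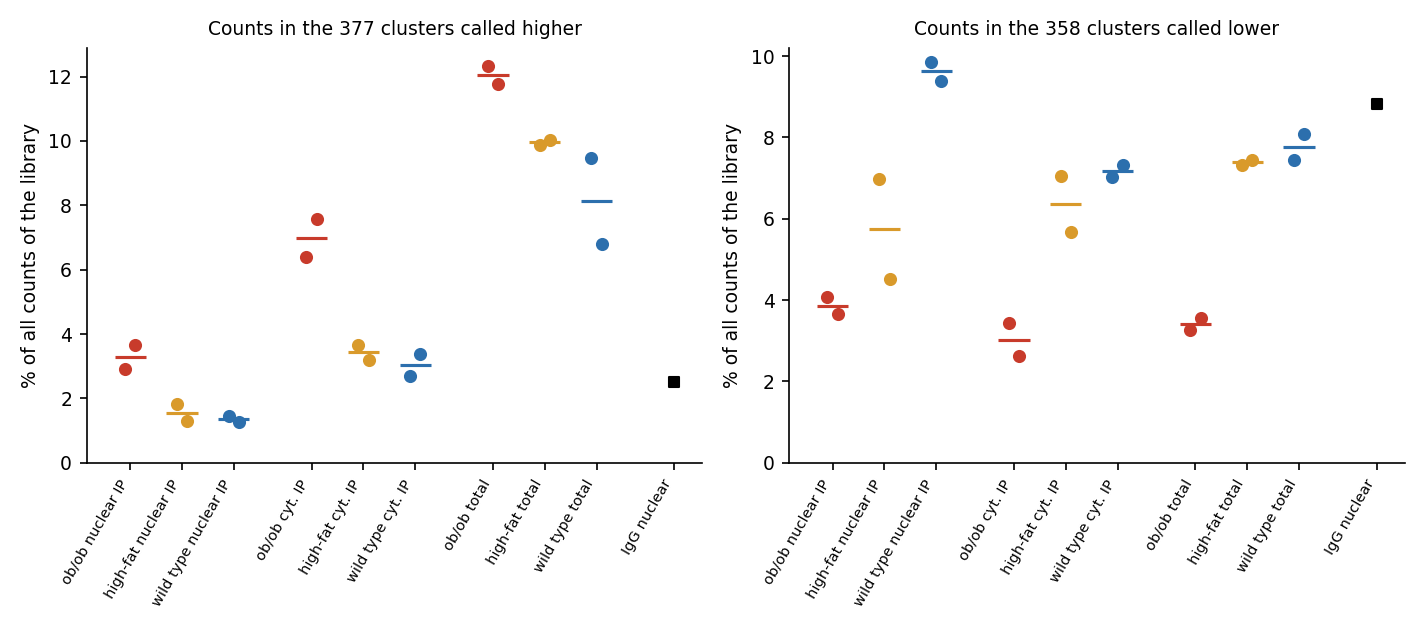
Percentage of all counts of a unit that fell in the clusters called higher (left) or lower (right) in ob/ob nuclear IP. Dots are units, lines are means of 2, the black square is the nuclear IgG library, and the y axes start at 0. The ob/ob nuclear IP libraries hold 2.92% and 3.65% in higher clusters and the wild-type ones 1.44% and 1.27%. Total RNA shows the same order of ob/ob and wild type in both panels. In ob/ob and in wild type its shares are higher than those of nuclear IP in the left panel and lower in the right. In high-fat diet the total RNA shares are higher than those of nuclear IP in both panels. In nuclear IP, high-fat diet lies near wild type in the left panel.

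The direction in total RNA was the same for most nuclear IP calls. Of the 735 calls, 733 were also tested in total RNA, and 677 of these (92.4%) had the same sign there, 337 of 376 among the higher ones (89.6%) and 340 of 357 among the lower ones (95.2%). Over all 11470 clusters tested in both, the share with the same sign was 65.5%, and among those not called in nuclear IP it was 63.6%. With at least a 2-fold estimate in nuclear IP, 471 of 493 calls (95.5%) had the same sign in total RNA. Under 2-fold it was 206 of 240 (85.8%). The 56 clusters of opposite sign had a median absolute log2 fold change of 0.92 in nuclear IP and only 0.08 in total RNA, and none of them was called in total RNA. At an unadjusted p under 0.05 in total RNA there were 3 of them, against 26.9% of all clusters tested in total RNA, all 3 higher in nuclear IP and lower in total RNA. Clusters are not independent of each other, and the nuclear IP and total RNA libraries may come from the same animals, so these shares carry no p.

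Far fewer of the calls were also called in total RNA. There, 244 of 15487 clusters passed (1.58%), 106 higher (0.684%) and 138 lower (0.891%), and 92 of the 733 nuclear IP calls (12.6%) were among them, all in the same direction. Of these 92, 31 were higher and 61 lower. The total RNA count was 0 with only one of the ob/ob replicates in the fit and 3221 with wild-type replicate 1 removed, and DESeq2 called 2104, so this overlap depends on single libraries and on the tool. The median log2 fold change of the higher calls was 1.45 in nuclear IP and 0.66 in total RNA, and that of the lower calls was -1.06 and -0.48. These calls were picked in nuclear IP, a choice that favours larger values there. Read the other way, the 78 clusters that were called higher in total RNA and tested in nuclear IP had a median of 1.39 in nuclear IP and 1.36 in total RNA. The 126 called lower had -0.90 in nuclear IP and -0.97 in total RNA. Of these 204 total RNA calls, 197 (96.6%) had the same sign in nuclear IP. Across the 11470 clusters tested in both, Pearson's r of the fold changes was 0.699 and Spearman's rho 0.496, as a description of points that share mouse groups and perhaps animals.

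**Figure D4:**
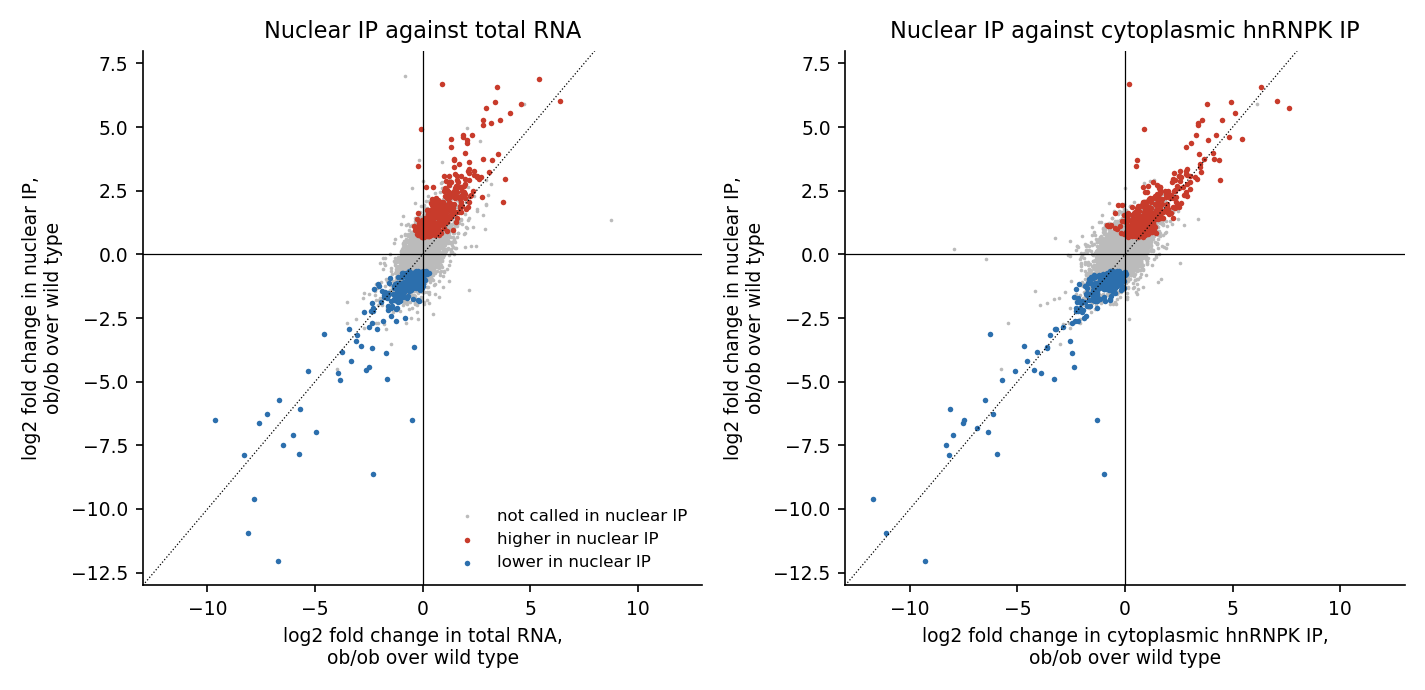
Log2 fold change of ob/ob over wild type in nuclear IP (y axis) against that in total RNA (left x axis) and in cytoplasmic hnRNPK IP (right x axis). Each point is a cluster, red if called higher, blue if called lower and grey if not called in nuclear IP. The dotted line marks equal values. Of the coloured points, 677 of 733 in the left panel and 708 of 727 in the right panel have the same sign on both axes.

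Whether the ob/ob effect in nuclear IP differed from that in total RNA was tested directly as a difference of differences. With edgeR and no replicate block, 0 of 15176 clusters passed (0.00%), 1964 had an unadjusted p under 0.05 (12.9%), and DESeq2 called 665. The smallest edgeR adjusted p was 0.104. On simulated counts this edgeR test recovered 7% of 2-fold and 66% of 4-fold differences, so 0 calls do not show equal effects. Of the 735 nuclear IP calls, 365 had an unadjusted p under 0.05 in this test, and in 362 of these the effect lay further from 0 in nuclear IP, a direction that the choice of the clusters in nuclear IP favours. The clusters of smallest p in each direction are described as not passing with edgeR, and all 4 passed with DESeq2. With a replicate block within mouse group, added after seeing the data, edgeR called 84 clusters, these 4 among them. The labels do not say whether same-numbered libraries share an animal, so the main fit has no such block.

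Cluster uc008mqj.1 (5177 nt, 5 isoforms) had 118.9 and 119.3 CPM in ob/ob nuclear IP, against 50.6 and 43.2 CPM in wild-type nuclear IP. In total RNA it had 259.6 and 234.3 CPM in ob/ob against 354.3 and 269.6 CPM in wild type. It was higher in nuclear IP by 1.38 ± 0.18 in log2 units (SE, adjusted p = 0.0033, edgeR), with non-overlapping libraries, while in total RNA both ob/ob units lay below both wild-type units (-0.27 ± 0.17, adjusted p = 0.35). High-fat diet nuclear IP stood with ob/ob, at 132.7 and 129.0 CPM. The difference of the 2 effects was 1.66 ± 0.22 (adjusted p = 0.10, edgeR). Nuclear IgG had 87.3 CPM, below both ob/ob nuclear IP libraries and above both wild-type ones.

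Cluster uc008zdt.1 (533 nt, 1 isoform) was likewise higher in ob/ob nuclear IP and lower, though not called, in total RNA (adjusted p = 0.3, edgeR). It had 102.0 and 99.2 CPM in ob/ob nuclear IP, against 48.2 and 39.6 CPM in wild-type nuclear IP, and 186.0 and 171.6 CPM in ob/ob total RNA against 206.1 and 221.3 CPM in wild-type total RNA. High-fat diet nuclear IP lay between ob/ob and wild-type nuclear IP, at 65.3 and 65.7 CPM. The difference of effects was 1.43 ± 0.20 in log2 units (SE, adjusted p = 0.10, edgeR). In cytoplasmic IP it was higher too, with 602.2 and 810.0 CPM in ob/ob against 273.6 and 356.7 CPM in wild type (adjusted p = 0.040, edgeR). Nuclear IgG had 63.9 CPM, below both ob/ob nuclear IP libraries and above both wild-type ones. Cytoplasmic IgG had 156.2 CPM, from 72 counts, below all of these cytoplasmic IP libraries.

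On the lower side, uc009szq.1 (4948 nt, 2 isoforms) had 8.20 and 7.65 CPM in ob/ob nuclear IP, against 21.1 and 19.3 CPM in wild-type nuclear IP. Total RNA was nearly level, with 22.2 and 25.5 CPM in ob/ob against 23.6 and 27.2 CPM in wild type. The fold change was -1.31 ± 0.24 in nuclear IP (SE, log2 scale, adjusted p = 0.015, edgeR) and -0.01 ± 0.11 in total RNA, and their difference did not pass (-1.29 ± 0.22, adjusted p = 0.15). Cluster uc007xrx.2 (1106 nt, 2 isoforms) had opposite signs, with 13.9 and 12.6 CPM in ob/ob nuclear IP against 21.96 and 18.03 CPM in wild-type nuclear IP. In total RNA it had 10.2 and 11.2 CPM in ob/ob against 5.80 and 4.51 CPM in wild type. Neither effect was called (adjusted p = 0.15 in nuclear IP and 0.053 in total RNA, edgeR), nor was the difference of -1.68 ± 0.27 (adjusted p = 0.15). Nuclear IgG had 16.4 CPM of uc009szq.1 and 14.7 CPM of uc007xrx.2. For each cluster this lay above both ob/ob and below both wild-type nuclear IP libraries.

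Cytoplasmic hnRNPK IP of the same groups moved in the same direction as nuclear IP. Of 11901 clusters, 665 were called there (5.59%), 336 higher (2.82%) and 329 lower (2.76%) in ob/ob, or 437 higher and 235 lower by library size only. Of the 727 nuclear IP calls tested in both, 708 (97.4%) had the same sign in cytoplasmic IP, against 70.0% of all 11200 clusters tested in both, and 299 were called the same way. Of these 299, 165 were higher and 134 lower, and none was called in the opposite direction. Called higher clusters had a median log2 fold change of 1.43 in nuclear IP and 0.98 in cytoplasmic IP, and called lower clusters -1.06 and -0.79. Read the other way, clusters called higher in cytoplasmic IP had a median of 1.04 in nuclear IP and 1.15 in cytoplasmic IP, and those called lower -0.82 and -1.19, so each IP had the larger median where the calls were made in it. Among the 726 nuclear IP calls tested in all 3 kinds of library, 658 had the same sign in all of them and 49 had the same sign in both IPs and the opposite one in total RNA. Called the same way in all 3 were 67 clusters, 23 higher and 44 lower. In nuclear IP alone 406 were called, which does not show that they differ from the other libraries.

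The difference between the nuclear and the cytoplasmic effect was also tested. With edgeR 0 of 12502 clusters passed (0.00%), 817 had an unadjusted p under 0.05 (6.53%), and DESeq2 called 5. All clusters named for this comparison passed with DESeq2. On simulated counts the edgeR test recovered 7% of 2-fold and 64% of 4-fold differences, so 0 calls do not show equal effects. The smallest p belonged to uc008gfj.2 (6982 nt, 1 isoform). It had 35.8 and 73.4 CPM in ob/ob nuclear IP against 44.9 and 45.8 CPM in wild-type nuclear IP, where the groups overlap. In cytoplasmic IP it had 13.2 and 15.8 CPM in ob/ob against 68.1 and 60.6 CPM in wild type and was called lower (-2.22 ± 0.25, SE, log2 scale, adjusted p = 0.0036, edgeR). The difference was 2.47 ± 0.41 (adjusted p = 0.41). With a replicate block within mouse group, added after seeing the data, its adjusted p was 0.017 (edgeR). IgG had 217.0 CPM of this cluster in the nuclear and 186.6 CPM (86 counts) in the cytoplasmic library, above all of these IP libraries. Cluster uc007wit.2 (14829 nt, 18 isoforms) had 28.7 and 44.0 CPM in ob/ob nuclear IP against 17.5 and 17.1 CPM in wild-type nuclear IP, and 23.8 and 19.0 CPM in ob/ob cytoplasmic IP against 29.6 and 37.0 CPM in wild-type cytoplasmic IP. Its nuclear effect was called (adjusted p = 0.026, edgeR), and its cytoplasmic one was not (0.069). The difference of these effects was 1.76 ± 0.30 and did not pass (adjusted p = 0.41, edgeR). Nuclear IgG had 26.0 CPM, below both ob/ob nuclear IP libraries and above both wild-type ones. Cytoplasmic IgG had 78.1 CPM, from 36 counts, above all of these IP libraries.

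The other side was led by uc008tlw.2 (1611 nt, 1 isoform), which had 47.4 and 37.9 CPM in ob/ob nuclear IP against 67.2 and 68.0 CPM in wild-type nuclear IP. In cytoplasmic IP it had 39.9 and 33.1 CPM in ob/ob against 22.4 and 21.1 CPM in wild type, the opposite order. Neither effect passed (adjusted p = 0.067 and 0.055, edgeR), nor did their difference of -1.36 ± 0.24 (SE, log2 scale, adjusted p = 0.41, edgeR). Cluster uc009nbe.2 (1969 nt, 1 isoform) had 0 counts in both ob/ob nuclear IP libraries, against 6.12 and 8.30 CPM in the wild-type ones, at least 30.2-fold lower with the floor of 3 counts (adjusted p = 0.016, edgeR). It was present in ob/ob cytoplasmic IP with 5.43 and 6.43 CPM, against 8.498 and 13.68 CPM in wild type. The difference of the nuclear and cytoplasmic effects did not pass (adjusted p = 0.74, edgeR). Total RNA had 11.2 and 14.1 CPM in ob/ob against 53.97 and 79.02 CPM in wild type, lower (log2 fold change -2.31 ± 0.25, SE, adjusted p = 0.026, edgeR). One of the high-fat diet nuclear IP libraries also had 0 counts of it. Nuclear IgG had 6.79 CPM of uc009nbe.2 and 42.1 CPM of uc008tlw.2. Cytoplasmic IgG had 10.85 CPM of each, from 5 counts each.

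Transcript length differed between the directions, though each length class held calls of both. Higher clusters had a median length of 1865 nt and lower ones 2940 nt, against 2563 nt for all clusters tested. Of the 203 clusters under 500 nt, 8 were higher (3.94%) and 3 lower (1.48%). Of the 908 clusters of 500 to under 1000 nt, 68 were higher (7.49%) and 13 lower (1.43%). Among the 303 of 8000 nt or more, 4 were higher (1.32%) and 13 lower (4.29%). The median log2 fold change over all tested clusters of a class went the same way, from 0.31 under 500 nt and 0.19 at 500 to under 1000 nt through -0.03 at 2000 to under 4000 nt to -0.15 at 8000 nt or more. In each of the 4 pairings of an ob/ob with a wild-type library, the median was above 0 under 500 nt (0.07 to 0.44) and below 0 at 8000 nt or more (-0.29 to -0.09). At 500 to under 1000 nt it was -0.07 to 0.42, so the pairings fell on both sides of 0 in that class. The pairings used CPM scaled over all units, so their 0 can differ slightly from that of the fitted medians. With 2 libraries per group no permutation of libraries could reach 0.05, and no test was made.

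**Figure D5:**
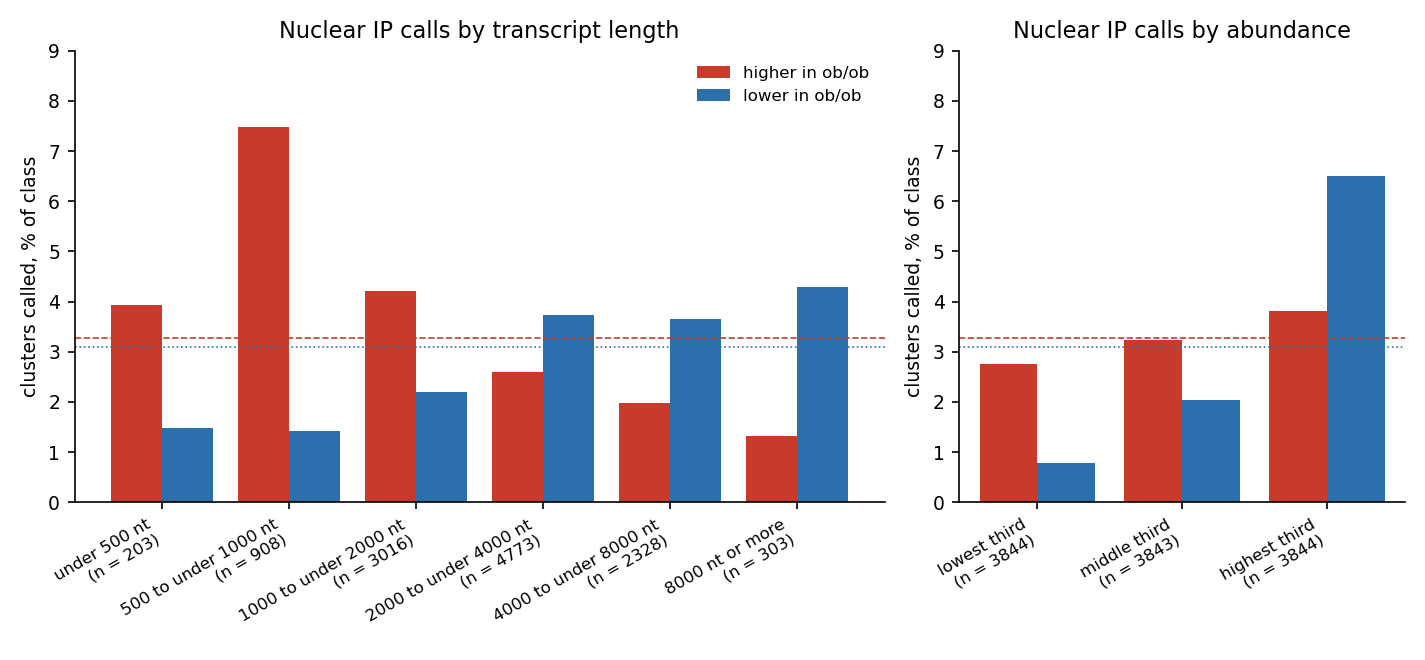
Percentage of tested clusters that were called higher (red) or lower (blue) in ob/ob nuclear IP, by transcript length in nucleotides (left) and in 3 equal groups of the mean log2 CPM in nuclear IP (right). The dashed red and dotted blue lines mark the shares over all clusters tested, 3.27% and 3.10%, and n is the number tested. Higher calls peak at 500 to under 1000 nt with 7.49%, and lower calls are most frequent in the most abundant group with 6.50%.

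Abundance also differed between the directions. With the clusters in 3 equal groups by mean log2 CPM, 106 were higher (2.76%) and 30 lower (0.780%) in the lowest group. In the highest group 147 were higher (3.82%) and 250 lower (6.50%). The median log2 fold change over all tested clusters also fell, from 0.20 in the lowest group through 0.005 to -0.12 in the highest. In the 4 pairings of an ob/ob with a wild-type library, again on CPM scaled over all units, it was 0.08 to 0.25 in the lowest group. In the highest group it was -0.22 to -0.10. The median of the mean log2 CPM was 3.89 for higher, 5.41 for lower and 3.66 for all clusters tested. Clusters with 1 isoform made up 42.7% of higher and 36.0% of lower clusters, against 32.8% of all tested. Their calls do not depend on how reads were divided within a cluster, though reads may still be divided between clusters.

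In the high-fat diet units, which were not part of the contrast, the level in nuclear IP was set against that in total RNA. Total RNA is not the input of the extract, so this ratio does not measure how strongly a set was held. The median log2 ratio of nuclear IP over total RNA was -0.65 for the higher clusters, 0.20 for the lower ones and -0.10 for all tested. Of the higher clusters 34.5% lay above total RNA in these units and of the lower ones 59.5%, against 46.4% of all tested. The single nuclear IgG library came from mixed mice and gives composition only. Both ob/ob libraries lay above it in 302 of the 377 higher clusters (80.1%), against 43.1% of all tested, and both wild-type libraries did in 82 (21.8%). In the lower clusters both ob/ob libraries lay above it in 30 of 358 (8.38%) and both wild-type libraries in 273 (76.3%), against 46.4% of all tested. At least 2-fold above IgG in both libraries were 134 higher clusters in ob/ob (35.5%, against 7.90% of all tested) and 41 lower clusters in wild type (11.5%, against 6.30% of all tested). These shares follow in part from the choice of the clusters, and which part of the signal the beads held without the antibody was not tested.

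Called clusters tended to carry neighbouring numbers. Of the 735, 144 (19.6%) lay within 2 numbers of another call, while 12.6% of all tested clusters lay that close to a call. Adjacent calls had the same direction in 70 of 81 pairs (86.4%). The longest run held 7 clusters, all lower, numbered 18950 to 18958 and including uc008tak.2 and uc012dfe.1, with log2 fold changes of -12.05 to -2.26. Together they took 0.0054% and 0.0109% of counts in ob/ob nuclear IP and 1.07% and 1.13% in wild-type nuclear IP. A run of 4, numbered 19937 to 19940, was higher throughout, with log2 fold changes of 1.12 to 5.26. Whether such neighbours share reads was not tested.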

How the data were processed

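The authors deposited expected counts per transcript, in tables of the kind that RSEM (1.2.8) writes. TopHat2 2.0.10, Bowtie2 2.1.0, SAMtools, bcl2fastq and build mm10 are also named, per the submitters' processing notes, with no role or order. Libraries were made with a TruSeq kit, per the labels' protocols, and the sources used here do not state whether they keep strand. Deposited transcript lengths are in nucleotides. Expected counts were summed per cluster, rounded, and, for total RNA, summed over the 2 libraries with one replicate number. Each comparison used edgeR 4.0.16 (R 4.3.3, limma 3.58.1): TMM composition scaling, filterByExpr, quasi-likelihood test and Benjamini-Hochberg adjustment over all clusters tested, fitted on the 6 libraries or units of that RNA kind, or on 12 for a difference of effects, with no replicate block. Standard errors were derived from each test, as the size of the log2 fold change over the root of F. CPM have TMM scaling over the 18 units and 2 IgG libraries, so folds of CPM can differ slightly from fitted ones. DESeq2 1.42.0 was an alternative. The steps were tested on simulated counts. In ob/ob nuclear IP 100 clusters were changed 2-fold and 100 were changed 4-fold. The nuclear IP test recovered 35% and 87% of them, with 14 false calls. The test against total RNA recovered 7% and 66%, with 6 false calls, and that against cytoplasmic IP 7% and 64%, with 4.

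Named clusters are the 2 highest and 2 lowest by log2 fold change among calls with mean log2 CPM of at least 1 and non-overlapping groups. For differences of effects, where none passed, those of smallest p were taken. The same rule asked for gene symbols, lists and markers, which no table used here pairs with these identifiers. Members and lists were chosen with earlier results of these data known.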

Additional observations from a re-analysis of the deposited data

How the results depend on the processing

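The 4 clusters named for nuclear IP were called in every alternative run. The fitted value of uc012dfe.1 was -13.28 with all 18 units, with no ob/ob counts behind it. The 735 nuclear IP calls were 1683 with no filter, 279 with only the 4 libraries and 1855 with all 18 units, and 62 to 858 without single ob/ob or wild-type replicates. Without high-fat diet replicate 1 or 2, added after seeing the data, they were 321 or 308. The 244 total RNA calls were 91 by library size only, 2104 with DESeq2, 387 with no filter, 5777 with each library as its own replicate, and 0 to 3221 without single replicates. The 665 cytoplasmic IP calls were 1854 with no filter and 61 to 1216 without single replicates. For nuclear IP minus total RNA, 0 became 665 with DESeq2, 5 with no filter, 2 with all 18 units and 0 to 2 without single replicates. For nuclear minus cytoplasmic IP, 0 became 1 by library size only, 5 with DESeq2, 57 with no filter and 0 to 1 without single replicates. The share of nuclear IP calls with the same direction in total RNA was 81.4% at an unadjusted p under 0.05 and 95.5% by library size only, and in cytoplasmic IP 89.8% at an unadjusted p. Of the values of the 12 named clusters under alternatives, 166 stayed on their side of the threshold and 22 newly passed, all 22 in differences of effects, and none reversed. The cause of these changes was not tested.

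Replicate numbers were not taken as pairs. The replicate 1 minus replicate 2 differences of ob/ob and wild type correlated with r of 0.008 across clusters in nuclear IP and -0.23 in total RNA. With a replicate block 790 clusters passed in nuclear IP, 63 in total RNA, 979 in cytoplasmic IP, and 0 in both differences of effects. With crossed numbers in total RNA, added after seeing the data, 201 passed. Between nuclear IP and total RNA the same differences had r of 0.35 in ob/ob, -0.13 in high-fat diet and 0.50 in wild type. A replicate block within mouse group, also added after seeing the data, gave 84 calls for nuclear IP minus total RNA, 66 higher and 18 lower, among them the 4 clusters described as not passing, with edgeR adjusted p of 0.0033 for uc008mqj.1, 0.0080 for uc008zdt.1, 0.014 for uc007xrx.2 and 0.034 for uc009szq.1, and 1 for nuclear minus cytoplasmic IP.

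Depth limits low clusters: ob/ob nuclear IP held 5517528 and 7216376 counts, the fewest of the 4 libraries, and 14679 of 19938 clusters left out had no count in nuclear IP.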
